A study of Homo sapiens with 7 samples.

Results

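The genes described here are 9 that encode proteins binding AU-rich or Pumilio elements: ZFP36, ZFP36L1, ZFP36L2, ELAVL1, HNRNPD, KHSRP, TIA1, TIAL1 and PUM2. They are a chosen set and not all such genes on the array, and they were taken by name, as every gene probe whose accession leads to one of these symbols. The 9 genes had 13 probes, out of 19062 named genes with 24826 probes. Gene expression was measured in NCI-H520 cells, an established line of human lung squamous cell carcinoma, on 7 one-colour arrays with 1 array per group. The controls were an empty vector and a non-target shRNA, and the remaining arrays came from cells given an shRNA against the deadenylase PARN, CNOT6, CNOT6L, CNOT7 or NOC (nocturnin, gene symbol NOCT). All groups received 6 µg of plasmid by cationic liposomes, puromycin at 6 µg/mL from 12 h, and were harvested at 72 h, so transfection and selection were common to the controls. Per the labels, the target accession given for the CNOT6L shRNA is the one given for NOC, which makes the sequence of that shRNA uncertain. Untransfected cells were not analysed here.

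AU-rich elements lie in the untranslated ends of many short-lived mRNAs, among them cytokine, growth factor and immediate early mRNAs. Proteins of the ZFP36 family bind these elements through paired zinc fingers and bring the CCR4-NOT deadenylase complex, to which CNOT6, CNOT6L and CNOT7 belong, to the mRNA. KHSRP is known to bring decay enzymes including PARN, HNRNPD mostly promotes decay, ELAVL1 (HuR) stabilises, and TIA1 and TIAL1 hold back translation under stress. Pumilio proteins such as PUM2 bind a different element and also bring in CCR4-NOT. The comparison therefore concerns the mRNAs of proteins that bind such elements, only some of which are known to bring in a deadenylase targeted here. The arrays measure mRNA only, and neither protein amount nor phosphorylation, by which ZFP36 proteins are regulated, was measured.

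The upstream sequences of ZFP36 and ZFP36L1 are shown because the mRNAs of the ZFP36 family were lower on the same 3 arrays. So were 12.4% of named genes above background on all arrays, as described further on. In the main setting only ZFP36L2 of this family passed in the comparison of slide rows given there, and it had no window. RefSeq windows of 250 bases before a start site (build GRCh38.p14) held 7 of the 9 genes, without ZFP36L2 and ELAVL1. They were searched on both strands for the letters TGACGTCA (cAMP response element), GCGNGGGCG (EGR), TGANTCA (AP-1) and TATAAA, and for the CArG box. The ZFP36 window is chr19:39406597-39406846 on the plus strand and held none of these motifs. ZFP36L1 has start sites with separate windows, and the one at chr14:68793417-68793666 on the minus strand held 1 cAMP response element, set in capitals, whose first base lies at -52. That motif was found in 1.65% of the 35116 windows of the table. The other ZFP36L1 window held none of the motifs searched. TATAAA was found in windows of HNRNPD and TIA1, and in 3763 of the 35116 windows. A match is a string of letters and not a measured binding site.
ZFP36: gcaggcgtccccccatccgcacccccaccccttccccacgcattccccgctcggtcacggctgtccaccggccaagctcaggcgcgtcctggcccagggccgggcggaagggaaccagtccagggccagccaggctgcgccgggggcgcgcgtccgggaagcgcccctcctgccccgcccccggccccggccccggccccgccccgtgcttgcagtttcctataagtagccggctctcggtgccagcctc
ZFP36L1: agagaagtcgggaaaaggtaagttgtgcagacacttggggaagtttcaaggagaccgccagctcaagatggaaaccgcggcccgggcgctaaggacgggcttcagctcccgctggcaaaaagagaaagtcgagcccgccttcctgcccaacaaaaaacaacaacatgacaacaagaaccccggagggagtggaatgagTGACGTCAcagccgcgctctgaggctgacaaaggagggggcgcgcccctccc

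Values are log2 processed signals minus the 75th percentile of the array, called scaled log2 signals below, and a gene is represented by its brightest probe. Levels of different probes are not set against each other, except in a sum over cell type markers given below. All arrays shared 1 slide. Slide row 1 held both controls and the arrays of PARN and CNOT6 shRNA. Slide row 2 held the arrays of CNOT6L, CNOT7 and NOC shRNA and no control. Slide row and the shRNAs on it therefore cannot be told apart. Between 82.0% (non-target shRNA) and 91.4% (empty vector) of gene probes were well above background per array. The share was 82.8% upon PARN and 84.7% upon CNOT6 shRNA, and 87.8% to 88.0% on the arrays of slide row 2. Each targeted mRNA was lowest on its own array, at 45.3% of the control mean for PARN, 88.2% for CNOT6, 64.8% for CNOT6L, 56.0% for CNOT7 and 76.0% for NOCT. Against the empty vector and the non-target array, NOCT differed by -0.59 and -0.20 log2 units and CNOT6 by -0.22 and -0.14. A lower NOCT mRNA thus depends in size on the control used. All 4 epithelial markers examined were well above background on all arrays, but of 7 squamous markers only SOX2, KRT6A and PKP1 were. DSG3 was above background on none, and TP63, KRT5 and KRT14 on 2, 4 and 1 arrays. The 4 markers of other cell types, PTPRC, PECAM1, COL1A1 and COL1A2, were also above background on all arrays. The log2 of their summed level lay between -1.29 and -0.63 in slide row 1 and between -1.17 and -0.85 in slide row 2. Such a sum can hide a difference in a single marker, and each marker is given by slide row further on.

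All 13 probes of the binding proteins were well above background on all 7 arrays, and 0 of their 224 spots were saturated or marked as outliers. Most of these mRNAs had a small range. The range of scaled log2 signal over the 7 arrays had a median of 0.41 for the 9 genes, against 0.62 for 16456 named genes above background on all arrays, and 8 of the 9 lay below that figure. The exception was ZFP36L2, with a range of 1.30, while the next widest was 0.51. The SD between spots of 1 probe on 1 array had a median of 0.06 and reached 0.25. With 1 array per group there is no replicate check, and the spot SD measures technical variation within 1 array alone. In RNA from whole cultures, fewer cells with an mRNA and less of it per cell cannot be told apart.

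**Figure D1:**
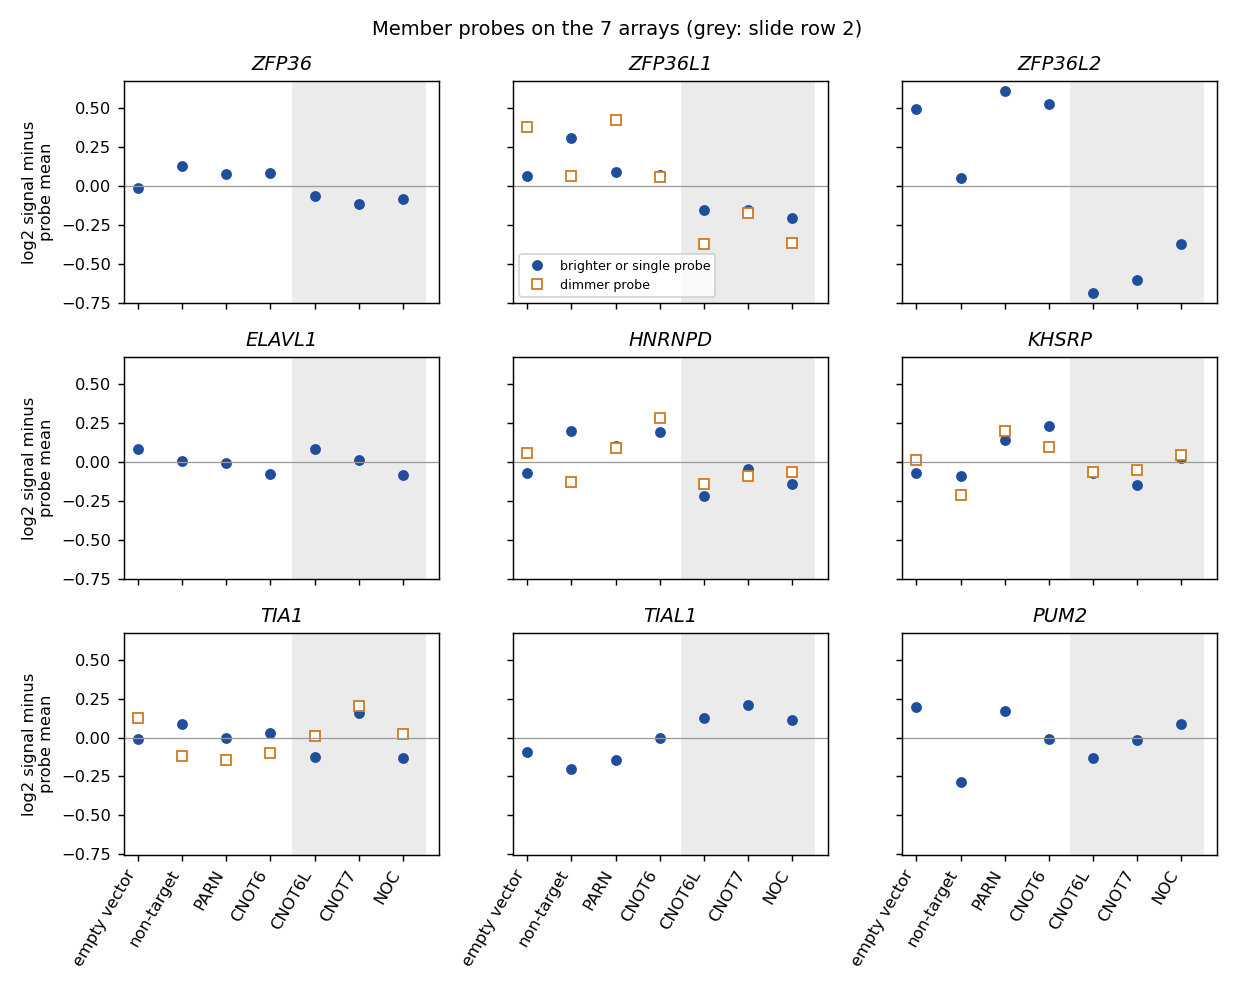
Scaled log2 signal of each of the 13 probes, minus the mean of that probe over the arrays, on the 7 arrays (x axis, 1 array per group; no error bar, since there are no replicates). Filled circles are the brighter or only probe of a gene, open squares the dimmer one, and the grey band marks slide row 2. ZFP36L2 has the widest range (1.30) and is lowest on the 3 arrays of slide row 2.

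ZFP36L2, which binds AU-rich elements and is known for roles in haematopoiesis and quiescence, was the member that differed most. Its scaled log2 signal was 2.36 with the empty vector, 1.92 with the non-target shRNA, 2.47 upon PARN shRNA and 2.39 upon CNOT6 shRNA. It was 1.18 upon CNOT6L shRNA, 1.26 upon CNOT7 shRNA and 1.49 upon NOC shRNA. The 3 arrays of slide row 2 were thus all below the 4 of slide row 1, and the non-target array was the lowest of the latter. The probe was printed on 10 spots per array, and the highest of the spots in slide row 2, at 1.59, lay below the lowest in slide row 1, at 1.78. The SD between its spots was 0.06 to 0.09, smaller than every step in this order except those between PARN shRNA, CNOT6 shRNA and the empty vector and between CNOT7 and CNOT6L shRNA.

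Against the empty vector, ZFP36L2 was lower by 1.18 log2 units upon CNOT6L shRNA, 1.09 upon CNOT7 shRNA and 0.86 upon NOC shRNA. Against the non-target array these differences were -0.74, -0.66 and -0.43. The control arrays themselves differed by 0.44. Upon PARN shRNA the differences were 0.12 and 0.55, and upon CNOT6 shRNA 0.03 and 0.47. Set against the mean of its row mates, ZFP36L2 differed by -0.20 on the CNOT6L, -0.07 on the CNOT7 and 0.27 on the NOC shRNA array, so the arrays of that row differed from each other by less than from either control.

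ZFP36L1, a paralog that targets AU-rich mRNAs in development and in stress, showed a smaller difference of the same direction on both of its probes. The brighter probe read 3.29 and 3.54 on the empty vector and non-target arrays, 3.32 upon PARN shRNA, 3.30 upon CNOT6 shRNA, 3.07 upon CNOT6L shRNA, 3.07 upon CNOT7 shRNA and 3.02 upon NOC shRNA. The other probe read 3.42, 3.1, 3.46, 3.09, 2.66, 2.86 and 2.67 in the same order. On each probe the 3 arrays of slide row 2 were below the other arrays, but the probes ranked the controls in opposite order, with a gap of 0.24 on the first and 0.31 on the second.

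ZFP36 (tristetraprolin), which limits TNF and other cytokine mRNAs, moved least within its family. It read 2.94 and 3.08 on the empty vector and non-target arrays, 3.03 upon PARN shRNA, 3.03 upon CNOT6 shRNA, 2.89 upon CNOT6L shRNA, 2.84 upon CNOT7 shRNA and 2.87 upon NOC shRNA. The arrays of slide row 2 were again the lowest, yet 2.89 upon CNOT6L shRNA lay only 0.05 below the empty vector, within the SD of 0.12 between the spots of ZFP36 on that control.

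**Figure D2:**
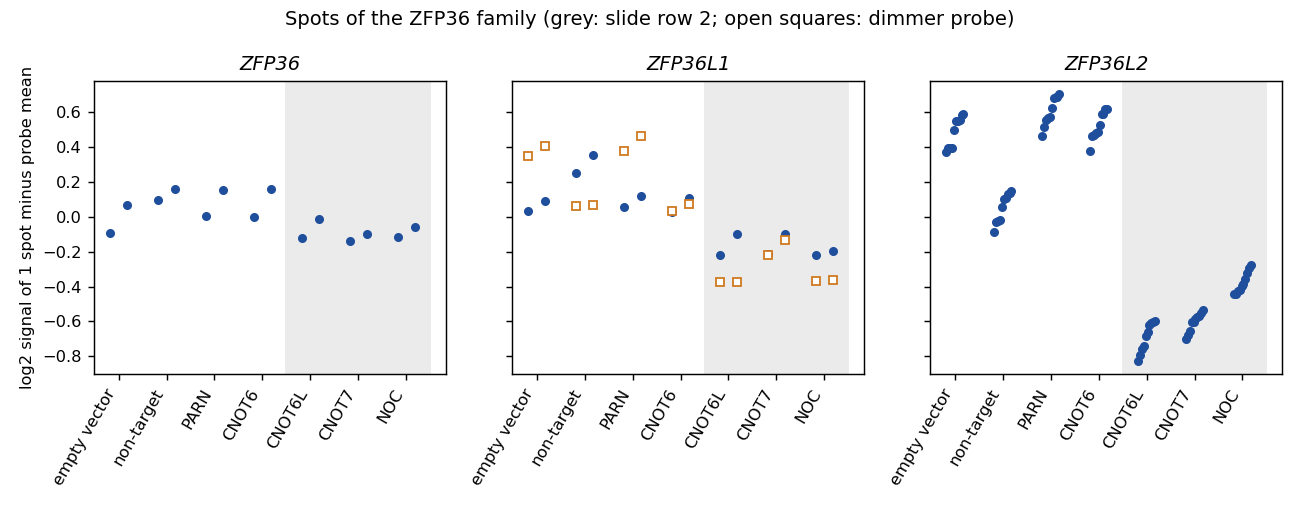
Scaled log2 signal of single spots of the ZFP36 family minus the probe mean over the arrays (y axis), for each of the 7 arrays (x axis), with spots of 1 array drawn in order of their value. Open squares are the dimmer ZFP36L1 probe and the grey band is slide row 2. No spot of ZFP36L2 in slide row 2 (highest 1.59 before subtracting the mean) reached the lowest of slide row 1 (1.78).

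The other decay-promoting proteins followed the slide rows less clearly. KHSRP, a KH-domain protein that also acts in microRNA processing, read 6.84 and 6.82 on the control arrays, 7.05 upon PARN shRNA, 7.14 upon CNOT6 shRNA, 6.84 upon CNOT6L shRNA, 6.76 upon CNOT7 shRNA and 6.94 upon NOC shRNA. It was therefore above both controls upon PARN shRNA (0.21 and 0.23) and upon CNOT6 shRNA (0.30 and 0.32), differences larger than the 0.02 between the controls, and by less upon NOC shRNA (0.10 and 0.12). The dimmer KHSRP probe, with 0.81 and 0.58 on the controls, was also highest upon PARN shRNA (0.99) and CNOT6 shRNA (0.89), but its controls differed by 0.23. Over all named genes above background on all arrays the median gap between the controls was 0.24. From the control mean, the brighter probe differed by 0.22 upon PARN shRNA and 0.31 upon CNOT6 shRNA. With quantile normalization these differences were 0.12 and -0.09, so the CNOT6 shRNA difference depends on the scaling.

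HNRNPD, the gene of several AU-rich binding isoforms, read 5.12 and 5.39 on the control arrays, 5.29 upon PARN shRNA, 5.39 upon CNOT6 shRNA, 4.97 upon CNOT6L shRNA, 5.14 upon CNOT7 shRNA and 5.05 upon NOC shRNA. CNOT6L and NOC shRNA were below both controls, and the others lay between the controls. Its dimmer probe read between 0.61 (CNOT6L shRNA) and 1.03 (CNOT6 shRNA). The brighter probe had a single spot, so it has no spot SD.

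ELAVL1, the stabilising counterpart, was the least variable member, with a range of 0.17. It read 1.5 with the empty vector, 1.42 with the non-target shRNA, 1.41 upon PARN shRNA, 1.33 upon CNOT6 shRNA, 1.5 upon CNOT6L shRNA, 1.43 upon CNOT7 shRNA and 1.33 upon NOC shRNA. The lowest arrays, CNOT6 and NOC shRNA, lay 0.08 and 0.09 below the non-target array.

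TIA1 and TIAL1, which silence translation and gather in stress granules, did not follow the same order. TIAL1 read 3.07 and 2.96 on the controls, 3.01 upon PARN shRNA, 3.15 upon CNOT6 shRNA, 3.28 upon CNOT6L shRNA, 3.37 upon CNOT7 shRNA and 3.28 upon NOC shRNA. It was the only member whose 3 arrays of slide row 2 were all above the other arrays, by up to 0.41 over the non-target array for CNOT7 shRNA. The brighter TIA1 probe read from 0.24 (NOC shRNA) to 0.53 (CNOT7 shRNA), with 0.37 and 0.46 on the controls. The dimmer TIA1 probe was also highest upon CNOT7 shRNA (-0.68), where the empty vector read -0.75 and the non-target array -1.0.

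PUM2, a sequence-specific repressor that recruits CCR4-NOT, differed more between the controls than upon any shRNA. It read 2.69 with the empty vector and 2.21 with the non-target shRNA, and all 5 shRNA arrays fell between, at 2.67 for PARN, 2.49 for CNOT6, 2.37 for CNOT6L, 2.48 for CNOT7 and 2.58 for NOC.

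With 1 array per group, a gene was called upon an shRNA when it was at least 2-fold higher, or at least 2-fold lower, than on each of the control arrays. By this rule 0 of the 9 members were called upon any of the 5 shRNAs. Of all named genes tested, 0.531% were called upon PARN shRNA, 0.487% upon CNOT6 shRNA, 0.861% upon CNOT6L shRNA, 0.960% upon CNOT7 shRNA and 1.33% upon NOC shRNA, so a count of 0 in 9 does not set the members apart from other genes. Between the empty vector and the non-target array 12.0% of genes differed at least 2-fold, and 0 members did. That share rests on 1 reference array and not 2, so it is not like the shares above. It also counts genes above background on only 1 of the controls, whereas all member probes were above background on both. Against both of its mates in slide row 2, 0 members were called for CNOT6L, CNOT7 or NOC shRNA, where 0.677%, 0.280% and 0.392% of genes were.

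At a 1.5-fold threshold ZFP36L2 was called lower upon CNOT6L shRNA, as were 2.46% of genes, and upon CNOT7 shRNA, as were 2.81%. Upon NOC shRNA, where 3.30% of genes were called lower, 0 members were called. Upon PARN and CNOT6 shRNA, where 1.90% and 3.44% of genes were called in either direction, 0 members were called. Of the 45 member values on shRNA arrays, 18 (40%) lay between the controls, 10 above both and 17 below both, and of all gene values 35.9% lay between the controls. The median difference of the 9 members from the control mean was 0.02 upon PARN shRNA, 0.04 upon CNOT6 shRNA, -0.12 upon CNOT6L shRNA, -0.07 upon CNOT7 shRNA and -0.15 upon NOC shRNA, beside -0.03, 0.01, 0.04, 0.02 and 0.01 for all genes. These 5 comparisons share both control arrays. Without scaling the median gene itself differed from the control mean by between -0.97 (CNOT6 shRNA) and 0.51 (CNOT7 shRNA). Values in the main setting are relative to the scaling percentile of each array and not to the median gene.

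**Figure D3:**
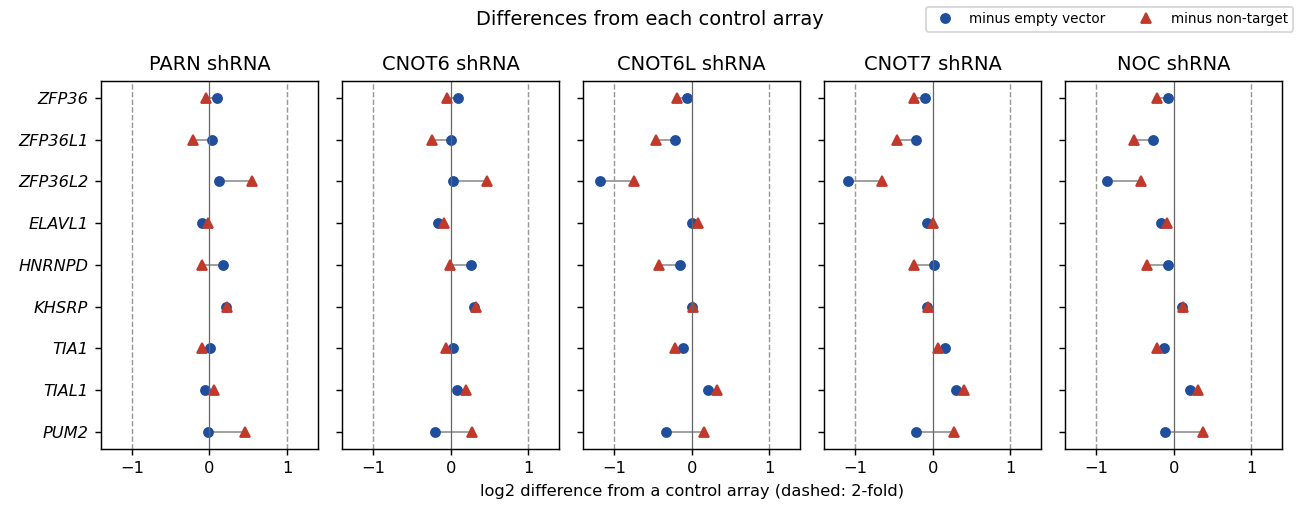
Difference in scaled log2 signal of each member's brightest probe from the empty vector array (circles) and from the non-target array (triangles), 1 panel per shRNA (x axis, log2 units; dashed lines at 2-fold). A member is called where both symbols lie beyond the same dashed line, and 0 of 9 were; ZFP36L2 upon CNOT6L shRNA is nearest, at -1.18 and -0.74.

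The 5 shRNA arrays were then compared with the 2 control arrays by limma, a linear model with a spread shared across probes and p-values adjusted by the Benjamini-Hochberg method, over 38004 probes. The arrays of an arm carry different plasmids, so the spread in this test is not that of repeated cultures. 0 probes (0.0%) passed an adjusted p of 0.05, with 1447 at an unadjusted p under 0.05 and a smallest adjusted p of 0.521, and 0 members passed even unadjusted. The estimates were -0.38 for ZFP36L2 (SE 0.37, 95% interval -1.20 to 0.44, limma adjusted p = 0.999), -0.26 for ZFP36L1 (interval -0.56 to 0.05) and 0.20 for TIAL1 (-0.08 to 0.49). For the other 6 members the brightest probe differed by -0.09 to 0.12, and their intervals lay within -0.41 to 0.41. With slide row as a term 0 members and 0 probes were called, with 3.71% of probes at an unadjusted p under 0.05 (1 member at an unadjusted p under 0.05, KHSRP at 0.27, SE 0.10, limma adjusted p = 0.939).

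The difference between the slide rows was estimated in the same limma model, as the 3 shRNA arrays of slide row 2 minus the 2 of slide row 1, with the controls adding to the estimate of the spread. This term was added after the data had been seen. ZFP36L2 was lower by 1.12 log2 units or 2.18-fold (estimate -1.12, SE 0.15, 95% interval -1.47 to -0.77, limma adjusted p = 0.0160), and was the 1 member of 9 that passed. Over all probes 4.12% passed, 2.09% as lower. Lower probes were 50.7% of these calls, 0.332% without scaling, where 49.2% of probes passed, and 77.8% with normexp, where 28.7% passed. The call was lost when the PARN (adjusted p = 0.0894), CNOT6 (0.0624), CNOT6L (0.0946), CNOT7 (0.0832) or NOC shRNA array (0.0639) was left out, with estimates from -1.05 to -1.21, and kept without either control. Without scaling, which moved the median gene by 0.99 between the rows, the estimate was -0.13.

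Estimates for the rest of the family were -0.25 (SE 0.10, limma adjusted p = 0.197) and -0.54 (SE 0.15, adjusted p = 0.0788) for the brighter and dimmer ZFP36L1 probes and -0.17 (SE 0.09, adjusted p = 0.330) for ZFP36. HNRNPD stood at -0.28 on both probes, KHSRP at -0.25 and TIAL1 at 0.22, none of which passed. Taken by rank, 3 members (the ZFP36 family) were lower and 1 (TIAL1) higher on every array of slide row 2 than on every array of slide row 1. Of all named genes 29.4% were separated in this way in either direction, and 12.4% as lower. PECAM1, an endothelial marker of the list above, also stood lower in slide row 2, at -1.56 (SE 0.63, limma adjusted p = 0.190), with its lowest value on the non-target array, whereas PTPRC, COL1A1 and COL1A2 stood at 0.04, 0.20 and 0.17. Its part in the ZFP36L2 result was not tested.

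**Figure D4:**
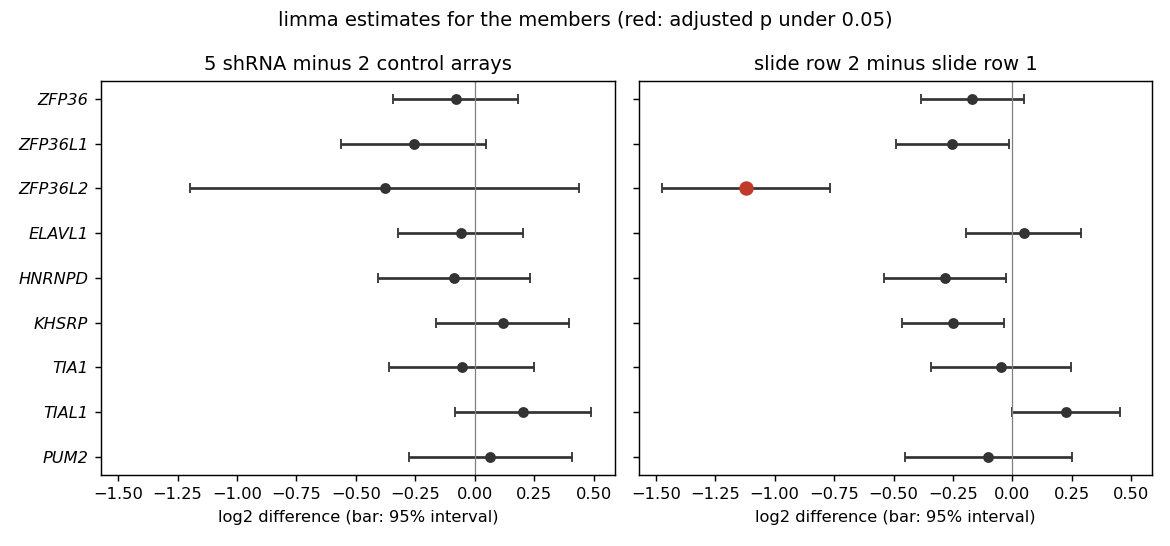
limma estimates for the brightest probe of each member with 95% intervals (x axis, log2 difference), for 5 shRNA minus 2 control arrays on the left and slide row 2 minus slide row 1 on the right. ZFP36L2 in the right panel (-1.12, red) is the one estimate with an adjusted p under 0.05.

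The genes whose pattern over the 7 arrays was most like that of ZFP36L2 were CPO (Pearson r = 0.991), TNFAIP3 (r = 0.988), which encodes the NF-kappaB inhibitor A20, and CHD2 (r = 0.987). TNFAIP3 read 1.41 and 0.92 on the controls, 1.49 and 1.55 upon PARN and CNOT6 shRNA, and -0.43, -0.08 and -0.08 on slide row 2. They were searched among 4034 probes with a range of at least 1 log2 unit, 280 of which had an r above 0.9. For ZFP36L1, the second member by range, the closest were TARM1 (r = 0.997), ASTN1 (r = 0.996) and ZNF780A (r = 0.993). Of 4035 probes searched, 122 had an r above 0.9. That search used the brighter ZFP36L1 probe only. The dimmer one, which ranked the controls in the opposite order, was not searched. These correlations describe 7 points that share slide, scaling and control arrays.

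Genes around the members were taken as lists. Of 33 other proteins that bind AU-rich, GU-rich, Pumilio or related elements, 0 were past 2-fold against both controls upon any shRNA. By shRNA, 0.487% to 1.33% of all named genes were. The list median lay between -0.07 and 0.03. In the slide row comparison 2 of the 33 passed as lower and 2 as higher, where 2.11% of named genes passed as lower and 3.20% as higher. All calls on listed genes named for this comparison were lost when any one of the 5 shRNA arrays was left out. CELF1, which binds GU-rich elements and recruits PARN, was lower by 0.86 (SE 0.13, limma adjusted p = 0.0208). It read 1.51 and 1.4 on the controls, 2.12 upon PARN shRNA, 1.98 upon CNOT6 shRNA, and 1.07, 1.07 and 1.41 on slide row 2, so the arrays of slide row 1 with a deadenylase shRNA stood above the controls as well. Its relative CELF2 was lower by 0.68 (adjusted p = 0.0463), FUBP3, of the same family as KHSRP, was higher by 0.64 (adjusted p = 0.0245), and CPEB3, a cytoplasmic polyadenylation element binding protein, was higher by 0.86 (adjusted p = 0.0334). CELF1 and the genes given for the slide row comparison were chosen after their values were seen.

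Of 12 genes of the p38-MK2 pathway, which phosphorylates ZFP36 proteins, 0 were past 2-fold. DUSP1, the phosphatase that switches p38 off, passed as lower in slide row 2 (-0.77, SE 0.14, limma adjusted p = 0.0319), with 0.93 and 1.37 on the controls, 1.04 and 1.08 upon PARN and CNOT6 shRNA, and 0.31, 0.28 and 0.29 upon CNOT6L, CNOT7 and NOC shRNA. Of 8 mRNAs known as Pumilio targets, 0 were past 2-fold. By shRNA, 0.487% to 1.33% of all named genes were called, so these counts of 0 do not set either list apart. FOXP1 passed as lower (-0.49, limma adjusted p = 0.0416) and PCNA as higher (0.55, adjusted p = 0.0455) in slide row 2. Between the rows 2.11% of named genes passed as lower and 3.20% as higher.

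The list of 23 mRNAs known to carry AU-rich elements was chosen with earlier results of these data known, so it is not an independent check. Of the 23 mRNAs, 20 were above background on all arrays. Upon CNOT6 shRNA 19 of these 20 stood above the control mean, as did 8462 of the 16456 named genes above background on all arrays. The list median was 0.57 beside 0.01 for all genes, while the 9 binding proteins had a median of 0.04. CNOT6 mRNA itself stood at 88.2% of the control mean on this array, and its part in the difference was not tested. The chemokine mRNAs CXCL1 (1.47 and 1.59 over the empty vector and the non-target array), CXCL2 (1.38 and 1.56) and CCL2 (1.28 and 1.29) were called higher, as were 0.232% of genes. The second probes of CXCL1 and CXCL2 lay the same way. Without scaling these mRNAs were not past 2-fold, and the list median was -0.41 where that of all genes was -0.97. Upon CNOT6L shRNA BIRC3, an inhibitor of apoptosis, was called lower (-1.05 and -1.17), as were 0.613% of genes, a call lost with quantile normalization (-0.96 and -1.18), with normexp background correction (-0.94 and -1.08) and without scaling. Upon PARN, CNOT7 and NOC shRNA 0 listed mRNAs were called. Short of a call, CCL2 stood above both controls upon NOC shRNA (0.78 and 0.80) and below both upon PARN shRNA (-0.84 and -0.83). The brighter CXCL1 probe stood above both upon NOC shRNA (0.64 and 0.76) and below both upon CNOT6L shRNA (-1.03 and -0.91).

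Between the slide rows the list of AU-rich mRNAs had a median of -0.59 over the 21 tested, beside 0.03 for all genes. The comparison is with the PARN and CNOT6 shRNA arrays, and the median was -0.34 without the CNOT6 shRNA array and -0.75 without the PARN shRNA array. Against the control mean the list medians in slide row 2 were -0.21, -0.21 and -0.01 upon CNOT6L, CNOT7 and NOC shRNA. Of the 21 mRNAs 4 passed as lower, as did 2.11% of named genes, and 0 as higher. They were BIRC3 (-0.94, limma adjusted p = 0.0287), KLF2 (-0.76, 0.0389), VEGFA (-0.66, 0.0328) and IER2 (-0.61, 0.0289). Without scaling 0 passed as lower and 7 as higher, beside a median of 1.02 for all genes. VEGFA, the angiogenic growth factor, read 2.76 and 2.40 on the controls, 2.81 and 2.71 upon PARN and CNOT6 shRNA, and 2.08, 2.12 and 2.12 on slide row 2, all 3 below the other arrays.

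**Figure D5:**
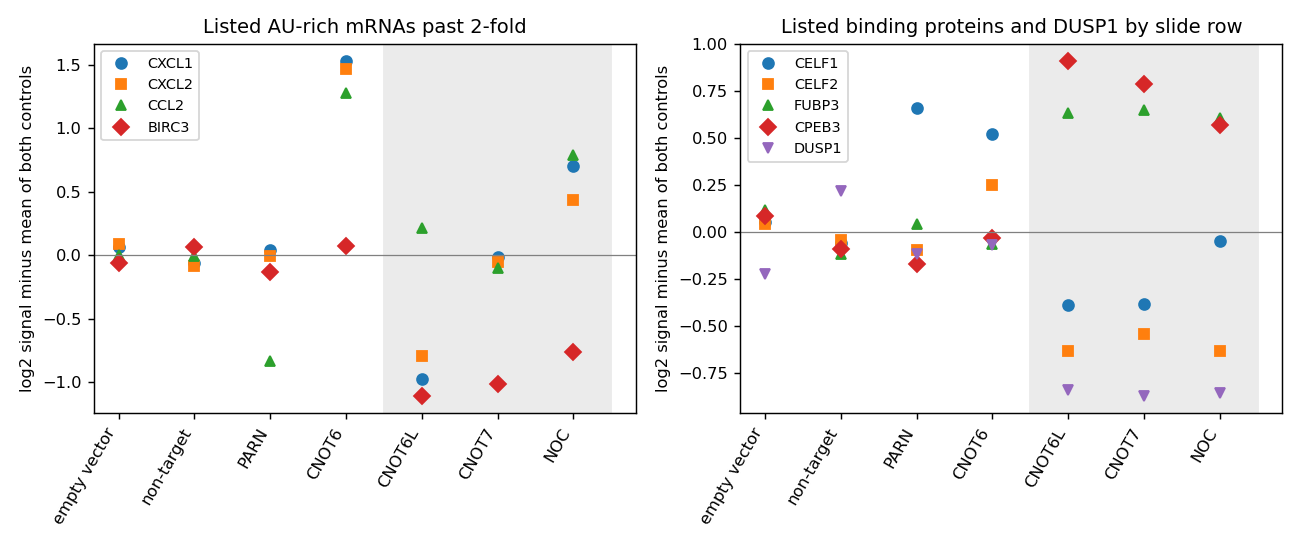
Scaled log2 signal minus the mean of both controls (y axis) on the 7 arrays (x axis; grey, slide row 2), for the listed AU-rich mRNAs past 2-fold (left) and for listed binding proteins and DUSP1 that passed in the slide row comparison (right). CXCL1, CXCL2 and CCL2 are highest upon CNOT6 shRNA, and DUSP1 reads 0.31, 0.28 and 0.29 before subtraction on the 3 arrays of slide row 2.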

How the data were processed

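Total RNA of 7 samples was labelled with Cy3 and hybridised to one-colour Agilent microarrays. Per the labels, the authors used Agilent Feature Extraction 10.7.3.1; the deposited scanner files hold intensity for 62976 spots per array, and a deposited series table holds log2 values. That table equals the log2 processed signal after 1 shift per array and subtraction of each probe's median over the arrays: differences between arrays agreed within 0.02 for 100% of probes above background on all arrays. Its column medians ran from -0.02 to 0.09.

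Control spots and outlier spots were left out, spots of 1 probe were averaged on the log2 scale, and the 75th percentile of each array was subtracted (42405 gene probes). A probe was above background where at least 50% of its spots were marked so. Names came from RefSeq (GRCh38.p14) through accessions; the CNOT6 accession in the labels lacks a zero, which was restored. limma 3.58.1 in R 4.3.3 (lmFit, eBayes with trend, two-sided, Benjamini-Hochberg at 0.05) used probes above background on at least 2 arrays and was tested on simulated data. In a 2-fold call the brighter side had to be above background, and a dim side was set to a bound. Groups came from sample titles. All members were described, together with targeted genes, listed genes past 2-fold, and the 3 probes closest in pattern to each of the 2 widest-ranging members. Members and lists were chosen with earlier results of these data known. One further gene of the naming rule is not reported here.

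Alternatives were quantile normalization, no scaling, normexp (offset 50, on median signals, since mean signals are not in the files used), the series table, outlier spots kept, gene means, filters on dim probes, 1.5-fold and 4-fold thresholds, slide row, and leaving out arrays. The number of arrays limits the precision, and p-values measure the spread between these arrays only.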

Additional observations from a re-analysis of the deposited data

How the results depend on the processing

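No paired analysis was possible because each group has 1 array and the groups share fewer than 2 replicate numbers. The count of members called in the 5 against 2 comparison stayed at 0 under every alternative run, including each array left out, slide row as a term and slide row 1 alone. The count of members past 2-fold was 0 under every scaling, background and probe alternative. It was 1 (ZFP36L2) upon CNOT6L shRNA and 1 upon CNOT7 shRNA at the 1.5-fold threshold, and 0 to 1 for each when one control was left out, the 1 arising without the non-target array. The count of members that differ between the slide rows, 1 in the main setting, was 8 without scaling (all but ZFP36L2, a setting that moved the median gene by 0.99), 2 with gene means (ZFP36L1 and ZFP36L2), and 0 to 1 with an array left out. Over all probes, the share that passed between the rows was 9.68% with gene means, 12.8% without the empty vector, 12.7% without the non-target array and 0.0974% to 0.503% without one of the shRNA arrays. Of 45 differences of members from the control mean, 7 took the opposite sign with quantile normalization, 23 without scaling, 5 with normexp, 0 with the series table, 7 without the empty vector and 11 without the non-target array. The cause was not tested. Differences under the gap between the controls cannot be resolved with 1 array per group.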
